A study of Arabidopsis thaliana with 12 samples.

Results

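The comparison described here is *sig2-2* against wild type (WT) after 7 days of constant red light (Rc). SIG2 is 1 of the nucleus-encoded sigma factors of Arabidopsis, the subunits that guide the plastid-encoded RNA polymerase (PEP) to its promoters. PEP shares the plastid genome with nucleus-encoded, phage-type polymerases, and in textbook terms PEP reads mainly photosynthesis genes and many tRNA genes, while the phage-type enzymes read mainly genes for plastid gene expression. SIG2 is known above all for promoters of plastid tRNA genes and of *psaJ*. The *sig2-2* line is a T-DNA insertion line in Col-0 and WT is Col-0. Whole seedlings of both genotypes were raised on sucrose-containing medium after cold in the dark, under red light of 50 µmol per square metre and second, and harvested after 1 d or 7 d (3 libraries per group, 12 in all). The deposited values are 1 pooled FPKM (a read count scaled to transcript length and library size) per locus and group, so no value below carries a replicate error and no difference was tested. Library depth is unknown.

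Members are the loci whose level at 7 d reached 1 FPKM in WT, in *sig2-2* or in both. They numbered 20159 of 33349 loci, of which 20057 are nuclear, 86 plastid and 16 mitochondrial. Differences are given as log2((*sig2-2* FPKM + 1)/(WT FPKM + 1)), so a positive value is higher in *sig2-2* and 1 on this scale is 2-fold. The scale understates differences of low loci. At 7 d, 4.88% of all members (984) were higher in *sig2-2* by 2-fold or more and 3.85% (776) were lower. The median over members was 0.00. Among nuclear loci with a mean of 10 to 30 FPKM the median size of a difference was 0.23, and it was 0.33 in those at 300 FPKM or more. The targeted gene, *SIG2* (AT1G08540), was listed at 87.7 FPKM in WT and 1.49 in *sig2-2*, a difference of -5.16.

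**Figure D1:**
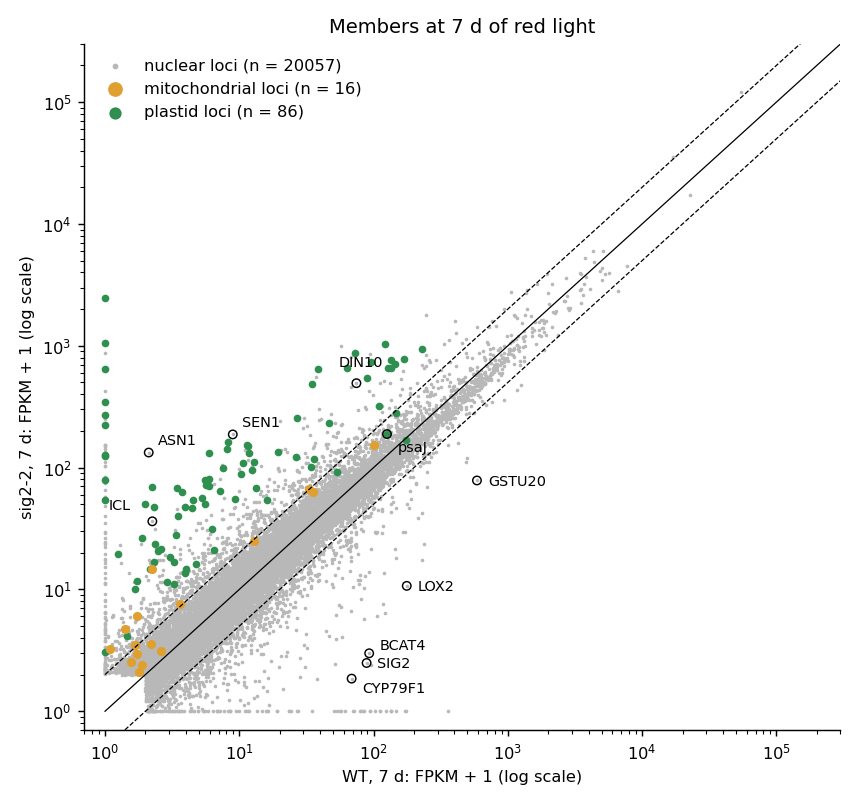
Each point is 1 member at 7 d, with its WT level on the x axis and its *sig2-2* level on the y axis, both as pooled FPKM + 1 on log scales. The solid line marks equal levels and the dashed lines 2-fold. The 86 plastid loci (green) lie almost all above the upper dashed line, *ASN1* and *SEN1* stand out above and *CYP79F1*, *BCAT4*, *SIG2* and *LOX2* below.

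Transcripts of the plastid genome showed the broadest difference. Of the 86 plastid members, 82 were higher in *sig2-2* by 2-fold or more, none was lower by that much, and the median was 3.12. Members below 1 FPKM in WT, 11 of them listed at 0, entered through *sig2-2* alone. Their direction was set by the choice of members, here and in the classes below. Over the 75 members above 0 in WT, 71 were higher by 2-fold or more and the median was 3.03. The summed level of all 130 listed plastid loci was 2459 FPKM in WT and 19664 in *sig2-2*. The only locus below 0 was *trnC*, at 172 FPKM in WT and 167 in *sig2-2*. The libraries were made with a kit that selects poly(A) RNA, and plastid transcripts are mostly not polyadenylated. Values of other RNA without long poly(A) tails are given here for description. The 4 nuclear rRNA loci differed by 0.99 to 1.08, AT2G01021, beside the rDNA, by 1.15 (54754 FPKM in WT and 121352 in *sig2-2*), and the 16 mitochondrial members had a median of 0.90. The 43 nuclear tRNA members had a median of 1.00, with 21 higher and 14 lower by 2-fold or more. The 42 nuclear snoRNA members had a median of -0.04, with 8 higher and 10 lower. Many of these short loci were listed at 0 in 1 genotype: 16 tRNA and 4 snoRNA members in WT, 10 and 6 in *sig2-2*. The part of RNA selection in the plastid values was not tested.

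Within the photosynthesis class (psa, psb, pet, rbcL, atp and ndh), 39 of 41 members were 2-fold or more higher and the median was 2.78. The smallest difference belonged to *psaJ*, a small subunit of photosystem I, with 125 FPKM in WT and 187 in *sig2-2* (0.58). Next came *psbM*, a small photosystem II subunit, with 52.1 and 91.0 FPKM (0.79). The merged locus of *atpB* and *atpE*, ATP synthase subunits, stood at 33.3 and 99.7 FPKM (1.56), and *psbT* at 108 and 321 FPKM (1.56). Genes of the photosystem II reaction centre and core were spread over the order. *psbA*, for the D1 protein, stood at 34.9 FPKM in WT and 116 in *sig2-2* (1.71), and *psbB*, for CP47, at 5.45 and 20.0 FPKM (1.70). The locus of *psbC* and *psbD*, for CP43 and D2, was at 18.6 and 134 FPKM (2.78), and *psbE* and *psbF*, for cytochrome b559, differed by 2.95 and 4.07. *rbcL*, for the large subunit of Rubisco, was at 25.3 and 121 FPKM (2.21).

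The upper end of the photosynthesis class held NDH and ATP synthase genes. *ndhG*, a subunit of the NDH complex of cyclic electron flow, was listed at 0.98 FPKM in WT and 48.9 in *sig2-2* (4.66). *atpA*, for the alpha subunit of ATP synthase, stood at 4.97 and 132 FPKM (4.48), and *ndhI* at 1.32 and 46.6 FPKM (4.35). *petG*, a small cytochrome b6f subunit, was listed at 0 in WT and at 125 FPKM in *sig2-2*, so no fold is given for it. By complex, the median was 2.30 over 14 psb loci, 2.77 over 6 pet loci, 3.18 over 5 psa loci, 3.50 over 10 ndh loci and 3.82 over 5 atp loci.

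Genes for plastid gene expression and for accD, clpP, ycf1 and matK were higher as a class, with 25 of 26 members past 2-fold and a median of 3.33. The exception was *rpl32*, a ribosomal protein gene, with 147 FPKM in WT and 279 in *sig2-2* (0.92). The genes of the PEP core itself were among the smaller differences. *rpoB* stood at 3.75 and 15.2 FPKM (1.77), *rpoC1* at 2.07 and 17.3 (2.58) and *rpoC2* at 1.16 and 13.8 (2.78), whereas *rpoA*, which lies in the ribosomal protein cluster, was at 3.55 and 53.3 (3.58). *accD*, for a subunit of acetyl-CoA carboxylase, was listed at 0.25 FPKM in WT and 18.4 in *sig2-2* (3.96). *rps15* had the largest difference of the class among genes listed above 0 in WT, with 1.24 and 68.2 FPKM (4.95). *rps12A* was listed at 0 in WT and at 649 FPKM in *sig2-2*.

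Neighbouring genes of known plastid gene clusters had close differences in some clusters and not in others. The 3 ndh genes of the *ndhC*, *ndhK* and *ndhJ* cluster lay between 1.75 and 1.88, while the 7 genes of the *ndhH* to *ndhD* cluster, *psaC* included, lay between 3.32 and 4.66. The 8 loci from *rps19* to *rpoA* lay between 3.10 and 3.84, *psaA*, *psaB* and *rps14* between 3.12 and 3.24, and the 5 loci from *psbB* to *petD* between 1.56 and 2.58. Spans of 1 or more were seen from *psbE* to *psbJ* (2.26 to 4.07), *rps2* to *atpA* (3.03 to 4.48), *psaI* to *petA* (3.18 to 4.29) and *rpoB* to *rpoC2* (1.77 to 2.78), as in the *ndhH* to *ndhD* and *psbB* to *petD* clusters. Which genes form a cluster is textbook knowledge, and the clusters were picked after the values were seen. The inverted-repeat genes *ycf2*, *ndhB* and *rps7* were listed below 1 FPKM in both genotypes and are not members.

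**Figure D2:**
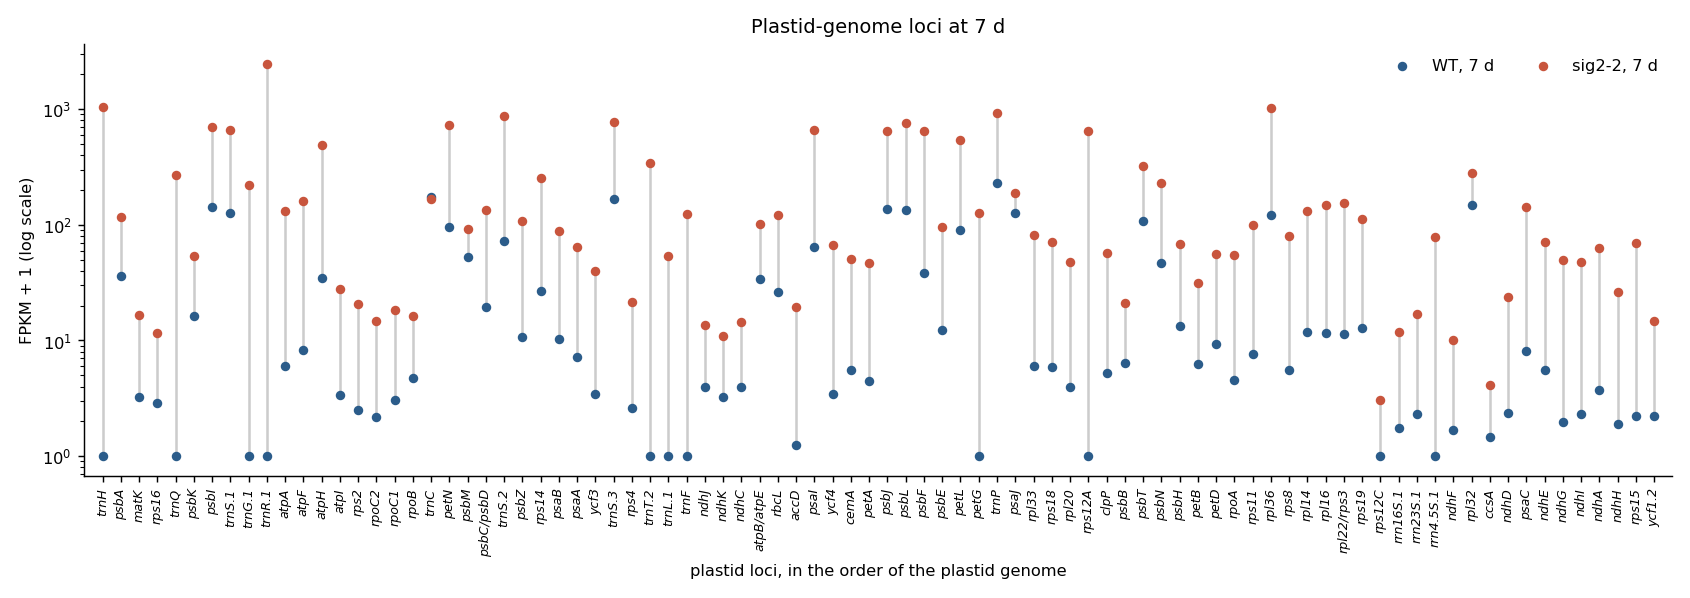
Pooled levels of the 86 plastid members at 7 d, as FPKM + 1 on a log scale, in genome order along the x axis. Blue points are WT, red points *sig2-2*, and grey lines join the pair. The red point is the higher of the pair at all loci other than *trnC*, and the pairs of *psaJ*, *psbM* and *rpl32* are the closest after it.

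Transfer and ribosomal RNA loci of the plastid could be followed less well. Of 45 listed, 29 were at 0 in both genotypes, among them *trnE* and *trnD*, and 8 of the 15 members were at 0 in WT alone. *trnR.1* was listed at 0 in WT and 2478 FPKM in *sig2-2*, and *trnH* at 0 and 1054. Over the 7 members above 0 in WT the median was 2.37, from *trnC* at -0.04 to *trnS.2* at 3.57 (72.0 and 864 FPKM). The 16S and 23S rRNA stood at 0.73 and 1.33 FPKM in WT and 10.7 and 15.9 in *sig2-2*.

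At 1 d the plastid picture differed in sign. Over the same classes the medians were -0.65 for photosynthesis genes and -0.58 for gene expression genes. Of their members, 11 of 40 and 4 of 25 were lower by 2-fold or more, against 1.29% of all 18970 loci at 1 d. By the same measure 2 and 0 were higher, against 2.92%. The 12 tRNA and rRNA loci had a median of -6.79, with 9 lower and 1 higher by 2-fold or more. Many of those were listed at 0 in *sig2-2*, such as *trnH*, at 833 FPKM in WT. The nuclear loci had the same values in the tables that hold the plastid loci and in the combined table. That equality does not show that levels compare across ages, which was not tested. In *sig2-2* all 86 plastid members were higher at 7 d than at 1 d. Members were picked by their 7 d level, so this count is partly set by that choice. *trnG.2*, at 191 FPKM at 1 d and 0 at 7 d in *sig2-2*, is not a member. In WT, 53 were lower at 7 d than at 1 d, 23 of them in the gene expression class of 26 and 20 in the photosynthesis class of 41. *atpA* shows both sides, with 13.4 FPKM at 1 d and 4.97 at 7 d in WT and 8.29 and 132 in *sig2-2*. *psaJ* went from 36.2 to 125 FPKM in WT and from 18.1 to 187 in *sig2-2*.

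The mitochondrial loci were higher in *sig2-2* to a smaller degree. All 16 members lay above 0 and 7 were past 2-fold. Members below 1 FPKM in WT entered through *sig2-2* alone, so their direction was set by the choice of members. Among these were *nad9*, *nad5C*, *nad1B* and *orf240A*, all past 2-fold. Without the members below 1 FPKM in WT, the median was still 0.90. The *rpl16* and *rps3* locus stood at 1.24 FPKM in WT and 13.8 in *sig2-2* (2.72), *nad9*, a complex I subunit, at 0.72 and 5.03 (1.81), and the 26S rRNA at 32.0 and 65.5 (1.01).

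Other nuclear sigma factor genes and polymerase genes stood close to WT. *SIG1*, *SIG3*, *SIG4*, *SIG5* and *SIG6* differed by -0.32 to 0.52, the largest being *SIG5* at 15.9 FPKM in WT and 23.3 in *sig2-2*. The gene of the plastid phage-type polymerase, *SCA3*, was at 19.5 and 27.4 FPKM (0.47), and *MGP3*, of the mitochondrial enzyme, at 12.1 and 16.0 (0.37). Of 12 genes for proteins that accompany PEP, none was past 2-fold, and the range ran from *FSD3*, an iron superoxide dismutase, at -0.62 to *FLN1*, a fructokinase-like protein, at 0.43.

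Among nuclear genes, those that respond to carbon starvation and darkness were higher in *sig2-2*. This list holds enzymes that break down amino acids and cell wall sugars and genes first found in darkened leaves. Of 27 members, 21 were past 2-fold, none was lower, and the median was 1.72. *ASN1*, the asparagine synthetase that stores nitrogen when carbon is short, was at 1.11 FPKM in WT and 132 in *sig2-2* (5.97). *SEN1* (*DIN1*), a senescence and darkness marker, stood at 7.94 and 186 FPKM (4.39). *BCAT2*, a branched-chain aminotransferase of amino acid breakdown, was at 0.30 and 22.1 FPKM (4.15), and *BXL1*, a beta-xylosidase of the cell wall, at 29.2 and 255 (3.08). The steps of leucine breakdown were also higher, with *IVD* at 9.47 and 33.5 FPKM (1.72) and *MCCA* at 13.5 and 63.6 (2.15). *ERD5*, the proline dehydrogenase, was at 35.8 and 159 FPKM (2.12) and *GDH2*, a glutamate dehydrogenase, at 98.3 and 393 (1.99). The class II trehalose phosphate synthase genes *TPS8*, *TPS9*, *TPS10* and *TPS11* lay between 1.61 and 2.37. *DRM1*, a dormancy marker, stood at 118 and 512 FPKM (2.11). At 1 d the list median was 0.12 and 1 of 23 members, *SEN1*, was past 2-fold.

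The 15 starch and sugar genes had no shared direction, with a median of 0.02, 3 higher and 3 lower by 2-fold or more. *STP1*, a hexose importer, was at 34.7 FPKM in WT and 151 in *sig2-2* (2.08), and *GPT2*, a glucose 6-phosphate translocator of plastids, at 0.48 and 3.92 (1.73). The hexose importer *STP4* was at 16.8 and 34.7 (1.00). The 3 lower genes act in starch synthesis, with *GBSS1*, the granule-bound starch synthase, at 63.3 and 24.6 FPKM (-1.33), *APL3* at 7.02 and 2.60 (-1.16) and *ADG1* at 193 and 94.8 (-1.02), the latter both being ADP-glucose pyrophosphorylase subunits. The sugar transporter genes *SWEET11*, *SWEET12* and *SUC2* differed by 0.02 to 0.20, and *SEX1*, of starch breakdown, by 0.16. Of 14 genes of oil breakdown and the glyoxylate cycle, the cycle's own enzymes *ICL*, isocitrate lyase (1.25 and 35.2 FPKM, 4.01), and *MLS*, malate synthase (1.79 and 18.1 FPKM, 2.77), were the 2 past 2-fold. The beta-oxidation genes *ACX1*, *MFP2* and *PED1* differed by 0.13 to 0.26.

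The promoter of *ASN1* is shown because this gene had the largest difference among members that reached 1 FPKM in WT and in *sig2-2* alike. The sequence covers the 250 bases before the RefSeq gene start in TAIR10.1 (ASN1 at chr3:17441432-17441681 on the minus strand), 5′ to 3′, and capitals mark a G-box (CACGTG) and a TATCCA box, each searched on both strands. The matches do not overlap.
ASN1: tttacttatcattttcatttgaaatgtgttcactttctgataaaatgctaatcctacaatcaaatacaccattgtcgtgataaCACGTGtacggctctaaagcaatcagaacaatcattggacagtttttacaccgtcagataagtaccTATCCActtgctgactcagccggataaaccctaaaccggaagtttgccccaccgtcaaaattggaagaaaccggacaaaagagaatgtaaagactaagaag
The G-box was in 7.25% of the 19318 promoters of nuclear protein-coding members and in 3 of 28 of this list. The TATCCA box, known from sugar-starved rice cells, was in 14.2% of all and in 7 of 28, but also in 5 of 8 promoters of the reference genes and 8 of 21 of the antenna genes. The promoter of *SEN1* held neither in this window.

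The aliphatic glucosinolate pathway, which makes methionine-derived defence compounds of the cabbage family, was lower in *sig2-2* almost throughout. Of 22 members, 21 were lower by 2-fold or more and the median was -3.08. The chain elongation enzymes come first in the pathway. *BCAT4*, the entry aminotransferase, stood at 91.7 FPKM in WT and 1.99 in *sig2-2* (-4.95), *MAM1*, a methylthioalkylmalate synthase, at 117 and 6.58 (-3.97), and the isomerase and dehydrogenase genes *IPMI2* and *IMD1* at 83.3 and 4.75 (-3.88) and at 147 and 17.1 (-3.03). Core synthesis enzymes followed, with *CYP79F1* at 67.6 and 0.85 FPKM (-5.21), *CYP83A1* at 105 and 5.02 (-4.14) and the glutathione S-transferase *GSTU20* at 588 and 77.4 (-2.91). *MAM1* and *MAM3*, like *CYP79F1* and *CYP79F2*, are close copies whose reads could be divided wrongly, but all 4 were lower. Of the MYB regulators, *MYB29* was at 12.6 and 0.33 FPKM (-3.35) and *MYB28* at 62.1 and 23.2 (-1.39). The member within 2-fold was *IIL1*, the large isomerase subunit shared with leucine synthesis, at 165 and 102 FPKM (-0.69). In 1-d seedlings 15 of the 22 genes were below 1 FPKM in both genotypes.

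The indolic branch, made from tryptophan, differed less. Its 14 members had a median of -0.34, with 3 lower and 1 higher by 2-fold or more. *SUR1* and *GGP1*, enzymes that both branches use, were at 66.3 and 23.52 FPKM (-1.46) and at 114 and 43.0 (-1.38). The indole-specific P450 genes *CYP79B2*, *CYP79B3* and *CYP83B1* lay between -0.42 and -0.17, and *CYP81F2* stood at 4.86 and 11.6 FPKM (1.104).

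Flavonoid and anthocyanin genes were also lower in *sig2-2*, with 12 of 15 members past 2-fold, none higher and a median of -1.88. Chalcone synthase (*CHS*), the entry enzyme, was at 143 FPKM in WT and 20.4 in *sig2-2* (-2.75). The late enzymes *DFR* and *LDOX* stood at 9.86 and 0.12 FPKM (-3.28) and at 9.08 and 0.23 (-3.03), and *TT19*, the transferase that moves anthocyanin to the vacuole, at 10.3 and 0.58 (-2.83). Flavonol synthase *FLS1* was at 48.5 and 9.39 FPKM (-2.25). *MYBL2*, a MYB repressor of this pathway, was among the nuclear genes of 100 FPKM or more with the largest positive differences, at 11.4 and 101 FPKM (3.04).

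**Figure D3:**
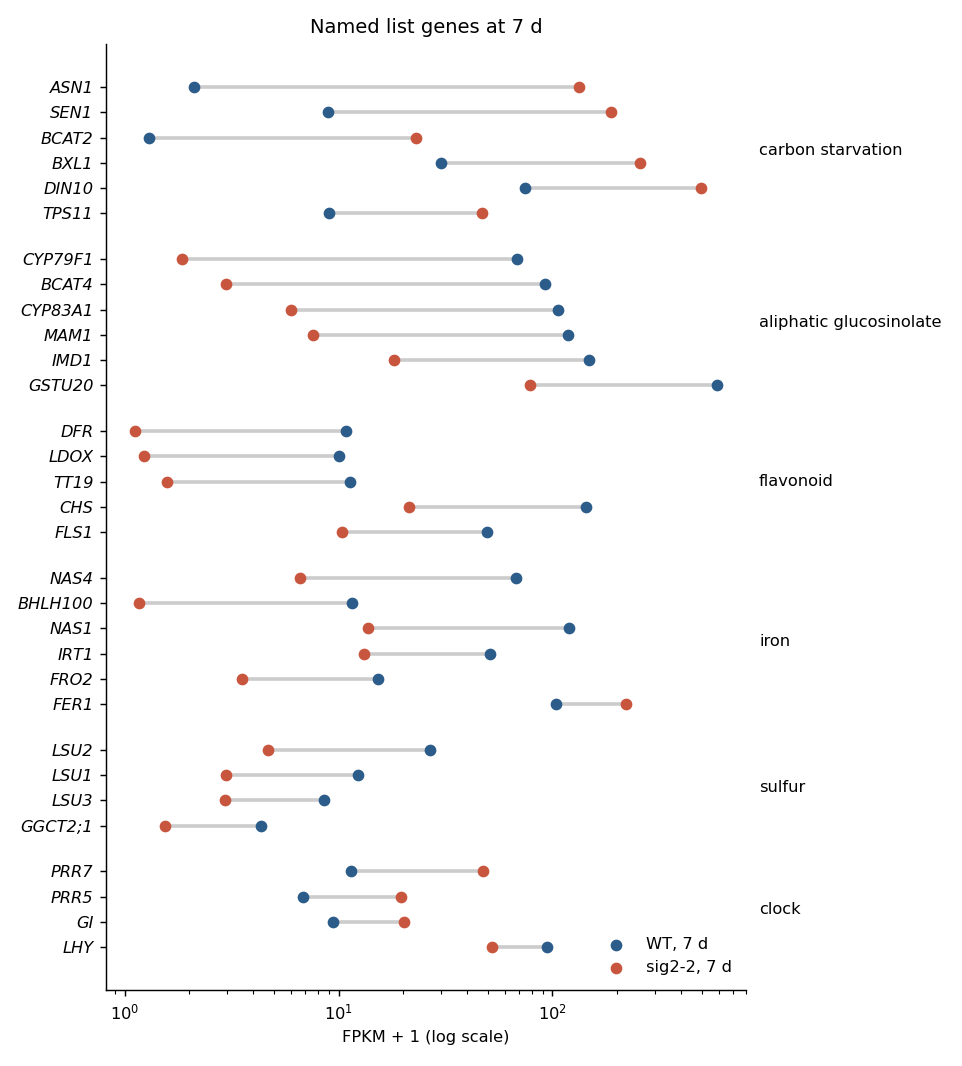
Pooled levels at 7 d of list genes, most of them named in the text, as FPKM + 1 on a log scale, in blocks by gene list. Blue points are WT and red points *sig2-2*. Red lies to the right in the carbon starvation block and to the left in the aliphatic glucosinolate, flavonoid and sulfur blocks, while *FER1* and *LHY* run against the rest of their blocks.

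Iron uptake genes were lower and iron storage genes higher. Of 19 members, 12 were lower and 2 higher by 2-fold or more. The nicotianamine synthases, which make an iron chelator, led the lower side, with *NAS4* at 66.7 FPKM in WT and 5.60 in *sig2-2* (-3.36), *NAS1* at 118 and 12.8 (-3.12) and *NAS2* at 8.72 and 0.75 (-2.48). These are close paralogs. The root uptake pair *IRT1*, the transporter, and *FRO2*, the ferric reductase, stood at 50.3 and 12.2 FPKM (-1.96) and at 14.4 and 2.53 (-2.12). Regulators were lower too, *BHLH100* at 10.6 and 0.17 FPKM (-3.31) and *PYE* at 20.14 and 5.64 (-1.67), whereas *FRU* (FIT), which drives *IRT1* and *FRO2*, was at 7.75 and 5.09 (-0.52). The ferritin genes *FER1* and *FER4* were at 103 and 220 FPKM (1.09) and at 31.7 and 65.6 (1.025).

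Sulfate assimilation and sulfur-deficiency genes were lower as well. Of 10 members with their own locus ID, 5 were lower by 2-fold or more, the median was -1.21 and none was higher by that much. *LSU2* and *LSU1*, markers of low sulfur, stood at 25.6 and 3.68 FPKM (-2.51) and at 11.3 and 1.99 (-2.04). *LSU3* was at 7.58 and 1.94 (-1.54). The 3 genes of APS reductase, the controlling step of sulfate reduction, carry 5-digit numbers in place of names in the deposited table (41365 for *APR1*) and were placed by position after the values were seen. *APR1* was at 76.2 FPKM in WT and 10.9 in *sig2-2* (-2.70), *APR2* at 247 and 90.2 (-1.44) and *APR3* at 136 and 56.2 (-1.25). With the genes placed by position the list held 8 of 15 lower.

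Jasmonate synthesis genes were lower while the signalling genes stayed near WT. Of 23 members of the list, 8 were lower and none higher by 2-fold or more. *LOX2*, the plastid lipoxygenase that begins the pathway, stood at 176 FPKM in WT and 9.69 in *sig2-2* (-4.05). The next enzymes *AOS* and *AOC2* were at 66.5 and 17.4 FPKM (-1.87) and at 94.3 and 20.6 (-2.14). Response markers *CORI3* (29.8 and 1.305 FPKM, -3.74) and *VSP2* (3.48 and 1.05 FPKM, -1.13) were lower, and the defensin gene *PDF1.2* was at 25.8 in WT and listed at 0 in *sig2-2*. *MYC2*, the main transcription factor of the pathway, was at 12.7 and 17.6 FPKM (0.44), and *JAZ1* at 11.5 and 14.9 (0.35). Salicylate genes showed no shared direction, with a median of -0.01 over 18 members. By 2-fold or more, 4 of these were higher and 1 was lower. *GRX480* (0.28 and 3.61 FPKM, 1.85) and *FMO1* (0.59 and 3.61 FPKM, 1.54) were higher and *PR5* (5.55 and 2.19 FPKM, -1.04) was lower.

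Cell division genes were lower in *sig2-2*, those of mitosis more than those of DNA replication. For mitosis 10 of 13 members were lower by 2-fold or more with a median of -1.08, and 23 genes, counted with cyclins and kinases placed by position, had a median of -1.02, with 13 lower by 2-fold or more and all below 0. *HIK*, a kinesin of the cell plate, was at 18.7 and 6.90 FPKM (-1.32), *TPX2* (AT1G03780), a spindle protein, at 15.5 and 5.91 (-1.26), *MAP65-3*, a microtubule bundling protein, at 14.8 and 6.06 (-1.16) and *KN* (KNOLLE), the cytokinesis syntaxin, at 83.3 and 37.5 (-1.13). For replication, all 12 members lay below 0 but none reached 2-fold, with a median of -0.54. *MCM3*, of the replicative helicase, was at 20.7 and 11.6 FPKM (-0.79) and *RNR1* at 35.0 and 30.8 (-0.18). In whole seedlings, fewer cells of a kind and less RNA per cell cannot be told apart, here and for every list above and below.

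The promoters of *HIK*, *MAP65-3* and *KN*, which are among the 4 largest differences of the list by locus ID, are shown with the core of the mitosis-specific activator element, AACGG, in capitals on either strand. The windows are the 250 bases before the RefSeq gene start in TAIR10.1, with HIK at chr1:6324379-6324628 on the minus strand, MAP65-3 at chr5:20964538-20964787 on the minus strand and KN at chr1:2711001-2711250 on the minus strand.
HIK: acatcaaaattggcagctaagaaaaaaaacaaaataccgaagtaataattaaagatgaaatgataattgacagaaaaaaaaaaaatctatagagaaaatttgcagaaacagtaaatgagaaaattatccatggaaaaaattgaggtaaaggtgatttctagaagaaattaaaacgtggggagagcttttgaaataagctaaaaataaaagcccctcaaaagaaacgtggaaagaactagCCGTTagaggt
MAP65-3: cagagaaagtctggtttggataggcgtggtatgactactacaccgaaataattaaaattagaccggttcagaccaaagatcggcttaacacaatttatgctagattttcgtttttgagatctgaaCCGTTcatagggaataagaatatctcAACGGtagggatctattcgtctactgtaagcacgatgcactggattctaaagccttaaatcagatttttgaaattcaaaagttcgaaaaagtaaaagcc
KN: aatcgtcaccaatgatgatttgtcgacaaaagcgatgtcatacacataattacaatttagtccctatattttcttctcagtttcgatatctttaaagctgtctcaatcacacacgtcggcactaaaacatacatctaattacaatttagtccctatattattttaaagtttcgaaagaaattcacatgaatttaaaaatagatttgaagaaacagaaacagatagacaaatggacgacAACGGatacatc
All 3 windows held the letters, with 2 matches in MAP65-3 and no overlapping matches. They were in 15 of 23 promoters of the mitosis list, 3 of 15 of the replication list, 4 of 8 of the reference genes, 7 of 14 of the glyoxylate list and 21.7% of the 19318 promoters of all nuclear protein-coding members. The E2F sequence TTTCCCGC was in 3 of 15 replication promoters, none of 23 mitosis promoters and 0.626% of all. A match is a description and not a shown binding site.

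Several clock genes were higher in *sig2-2*. Of 11 members 3 were past 2-fold, none was lower by that much and the median was 0.83. The pseudo-response regulators *PRR7* and *PRR5* stood at 10.5 FPKM in WT and 46.3 in *sig2-2* (2.04) and at 5.84 and 18.6 (1.52), and *GI* at 8.42 and 19.3 (1.11). *TOC1*, *LUX* and *ELF4* lay between 0.75 and 0.88. The morning gene *LHY* was at 93.2 and 51.1 FPKM (-0.85) and *CCA1* at 36.4 and 33.9 (-0.10). The hour of harvest is not given in the sources used here, and its part in these values was not tested. The 2 promoter windows below are those of the 2 largest differences, PRR7 at chr5:642031-642280 on the minus strand and PRR5 at chr5:8358547-8358796 on the minus strand, with G-boxes (CACGTG) and evening elements (AAAATATCT, on either strand) in capitals.
PRR7: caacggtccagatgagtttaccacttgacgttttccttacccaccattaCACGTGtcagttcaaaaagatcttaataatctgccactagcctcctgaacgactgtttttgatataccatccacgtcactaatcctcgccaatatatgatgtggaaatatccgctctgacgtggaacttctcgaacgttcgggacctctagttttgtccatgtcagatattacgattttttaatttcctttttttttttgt
PRR5: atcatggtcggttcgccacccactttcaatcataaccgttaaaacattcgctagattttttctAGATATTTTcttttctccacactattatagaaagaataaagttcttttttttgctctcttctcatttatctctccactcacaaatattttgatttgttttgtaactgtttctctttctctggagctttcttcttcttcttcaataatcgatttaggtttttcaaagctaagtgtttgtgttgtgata
PRR7 held a G-box and PRR5 an evening element, and *GI* neither in its window. The G-box was in 5 of 11 clock promoters against 7.25% of all members' promoters, and the evening element in 3 of 11 against 2.50%.

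Nuclear genes for light capture and carbon fixation had list medians within 2-fold, all of them below 0. The 21 antenna genes had a median of -0.11, with 1 higher and 2 lower by 2-fold or more. All 5 *LHCB1* genes, for the main antenna protein of photosystem II, lay above 0, from 0.24 to 1.06, with *LHCB1.3* at 16930 FPKM in WT and 35208 in *sig2-2*, and reads of these close copies could be divided wrongly. *LHCB2.4* (766 and 342 FPKM, -1.16) and *LHCB4.3* (25.8 and 4.83 FPKM, -2.20) were lower. The summed antenna level was 59692 FPKM in WT and 80843 in *sig2-2*. Most of that rise came from *LHCB1.3* alone, and 14 of the 21 antenna genes lay below 0. The medians were -0.37 for 18 genes of the Calvin cycle, with 1 lower by 2-fold or more, and -0.27 for 28 genes of chlorophyll and heme synthesis. In these lists 16 and 21 genes lay below 0. The summed Calvin cycle level was 61734 FPKM in WT and 45318 in *sig2-2*. Within chlorophyll synthesis the protochlorophyllide reductases *PORC* (196 and 82.3 FPKM, -1.24) and *PORA* (11.7 and 5.16 FPKM, -1.05) were lower and *HEMA2*, a glutamyl-tRNA reductase, was higher (10.4 and 22.4 FPKM, 1.03). *RBCS2B*, a small subunit of Rubisco, was at 6564 and 2791 FPKM (-1.23), while *RBCS1A* was at 22628 and 17384 (-0.38), and reads of these near-identical genes could be divided wrongly. Among regulators, *GLK1*, which promotes photosynthesis genes, was at 75.8 and 18.6 FPKM (-1.97) and its paralog *GLK2* at 116 and 103 (-0.17). *ELIP2*, an early light-induced protein, was at 14.0 and 1.94 FPKM (-2.35), and *HY5* at 20.9 and 20.3 (-0.04).

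Nitrate and stress genes added smaller groups. The 19 nitrogen members had no shared direction, with 10 above 0, 9 below and a median of 0.06. By 2-fold or more, 5 of them were higher and 1 was lower. *NIA1* and *NIA2*, the nitrate reductases, stood at 130 FPKM in WT and 497 in *sig2-2* (1.92) and at 487 and 1127 (1.21), and the nitrate-responsive repressors *LBD38* and *LBD39* were 1.06 and 1.34 higher, while *GLN1;2*, a cytosolic glutamine synthetase, was at 689 and 326 (-1.08). Of 14 markers of reactive oxygen and mitochondrial stress, 5 were higher by 2-fold or more, led by *ZAT10* (7.06 and 25.6 FPKM, 1.72) and *ZAT12* (6.55 and 20.4 FPKM, 1.503). Of 14 antioxidant enzymes *CSD2*, the plastid copper and zinc superoxide dismutase, alone passed 2-fold (129 and 310 FPKM, 1.26). No member of the plastid protein quality control list (11) or the carotenoid list (13) did. In the shade and phytochrome list *HFR1* (1.49 and 9.25 FPKM, 2.04) and *PIF4* (12.01 and 32.9 FPKM, 1.38) were higher, while none of the 16 was lower by 2-fold. Of 13 alpha-expansins, cell wall loosening proteins, 4 were lower by 2-fold or more, led by *EXPA4* (65.5 and 20.7 FPKM, -1.62) and *EXPA15* (51.5 and 19.0 FPKM, -1.39), and *EXPA17* was higher (1.43 and 4.45 FPKM, 1.16). Of 9 type-A response regulators of cytokinin, *ARR5* alone passed 2-fold (6.36 and 16.2 FPKM, 1.22). Of 6 genes of chlorophyll breakdown none did, with *NYC1*, the chlorophyll b reductase, just inside at 62.6 and 126 FPKM (1.00). Of 8 genes often used as references, *UBC21*, *PP2AA3* and *GAPC1* lay between -0.13 and -0.03, but *ACT8* was at 162 and 438 FPKM (1.43) and *ACT2* at 370 and 729 (0.98).

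**Figure D4:**
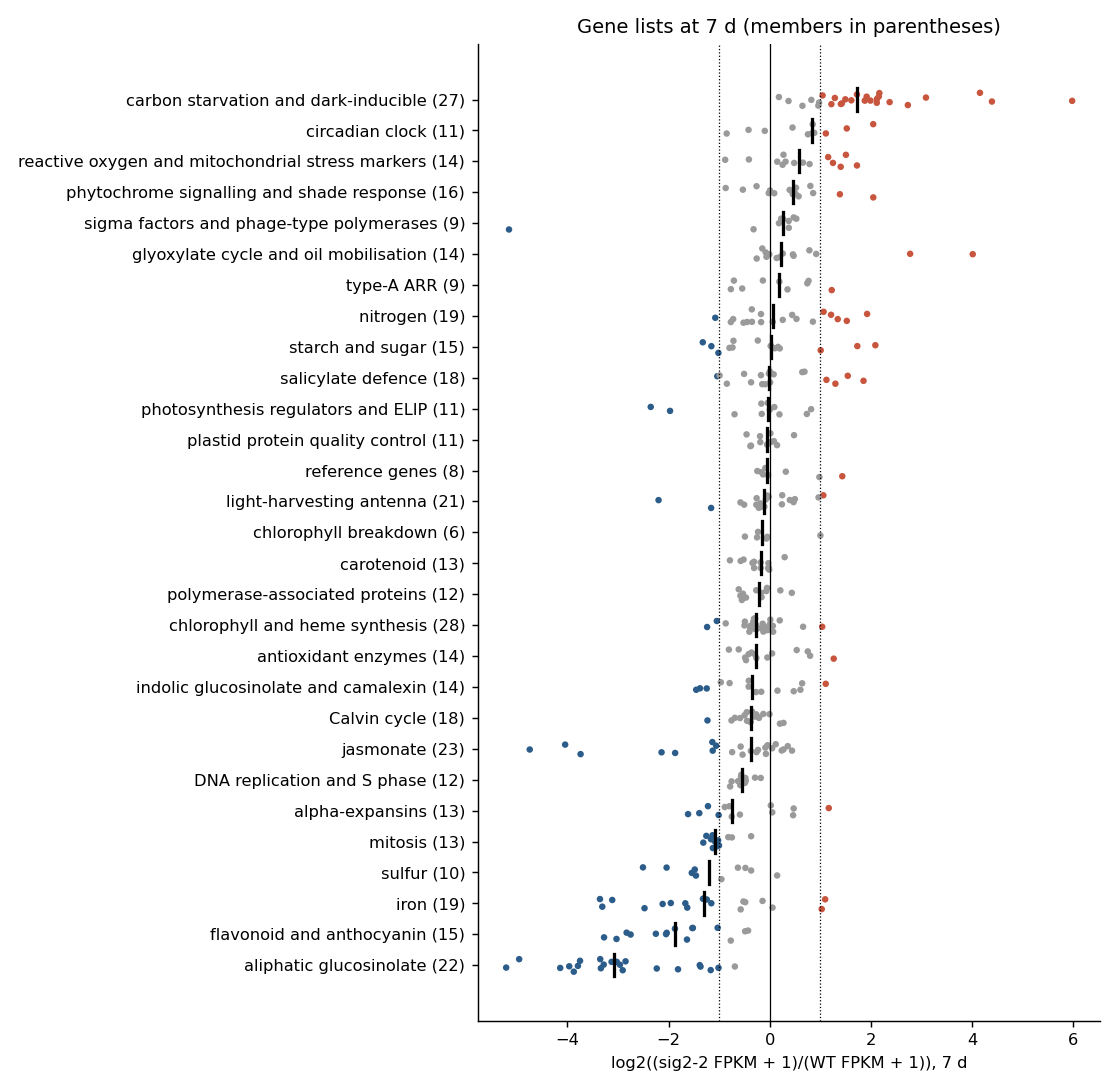
Each point is 1 list gene at 7 d, with its difference between *sig2-2* and WT on the x axis, black bars are list medians, and dotted lines mark 2-fold (red points higher, blue points lower). The 27 carbon starvation genes all lie above 0 and the 22 aliphatic glucosinolate genes all below it.

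Several genes outside the lists also had large differences. *THA1*, threonine aldolase, was at 1.35 FPKM in WT and 30.1 in *sig2-2* (3.72), *MIOX2*, which turns inositol towards cell wall sugars, at 6.21 and 79.5 (3.48), and *BGAL4*, a beta-galactosidase, at 10.7 and 114 (3.30). *HIS1-3*, a linker histone known from water stress, stood at 6.47 and 103 FPKM (3.80) and AT3G15450, annotated as an aluminium-induced protein, at 67.1 and 804 (3.56). AT2G05540, a glycine-rich protein, was at 36.2 and 555 FPKM (3.90), and AT2G33830, of the dormancy and auxin family, at 92.6 and 849 (3.18). *BT1*, a BTB and TAZ domain protein, stood at 38.5 and 300 FPKM (2.93). On the lower side were the defensin-like AT1G13609 (93.9 and 1.397 FPKM, -5.31), *PCC1* (57.5 and 3.10 FPKM, -3.83), AT2G30766 (120 and 5.46 FPKM, -4.22) and AT1G47400 (45.6 and 3.18 FPKM, -3.48). *TGG2*, a myrosinase that cleaves glucosinolates, was lower too (213 and 37.6 FPKM, -2.47).

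Root hair markers were lower in *sig2-2* at 7 d. Of 11 root hair members, 6 were lower by 2-fold or more and 10 lay below 0, with a median of -1.01 and a summed level of 40.7 FPKM in WT and 13.6 in *sig2-2*. *RHS19*, a root hair peroxidase, was at 7.16 and 1.34 FPKM (-1.80). At 1 d 12 of 13 root hair members were higher by 2-fold or more, with a median of 2.63. Markers of other cell types had medians nearer 0. The 10 endodermis and stele markers had a median of 0.32, with *CASP5*, of the Casparian strip, at 1.03 and 11.8 FPKM (2.66), the 8 phloem and xylem markers had a median of 0.09, the 9 guard cell and trichome markers -0.45 and the 4 shoot meristem members 0.43. Of 10 seed storage genes, 1 reached 1 FPKM (*CRA1*, 0.32 and 1.22). The part of root hair content in the iron, expansin and other root-expressed genes was not tested.

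Most loci past 2-fold at 7 d were within 2-fold at 1 d. At 1 d, 2.92% of 18970 loci were higher and 1.29% lower by 2-fold or more. Among 17977 nuclear loci at 1 FPKM or more at both ages, 647 were higher and 489 lower at 7 d, and 409 (2.28%) were higher and 133 (0.74%) lower at 1 d. Of the 647, 49 (7.57%) were also higher at 1 d and 34 (5.26%) were lower. Of the 489, 20 (4.09%) were also lower at 1 d and 64 (13.1%) were higher. Of the 409 loci higher at 1 d, 11.98% were higher and 15.65% lower at 7 d, and of the 133 lower at 1 d, 25.56% were higher and 15.04% lower. Each of the 4 shares of the 7 d loci was above the share of all 17977 loci that was past 2-fold in that direction at 1 d. Across these loci the 2 differences had a Pearson r of -0.10 and a Spearman rho of -0.04, given as a description because loci are not replicates. Besides *SIG2*, the lipid transfer gene *LTP3* was lower at both ages (18.6 and 6.73 FPKM at 7 d, -1.34, and 273 and 96.7 at 1 d, -1.49). *EXT4*, an extensin (1.92 at 7 d and 2.11 at 1 d), and *AZI1*, a lipid transfer-like protein of defence priming (2.64 and 1.52), were higher at both. *DREB2A*, a drought and heat response factor, ran from -1.16 at 1 d to 1.43 at 7 d, and *ADH1*, alcohol dehydrogenase, from 2.04 to -1.75. The antenna list had a median of 0.77 at 1 d and -0.11 at 7 d, and the Calvin cycle list 0.63 and -0.37.

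**Figure D5:**
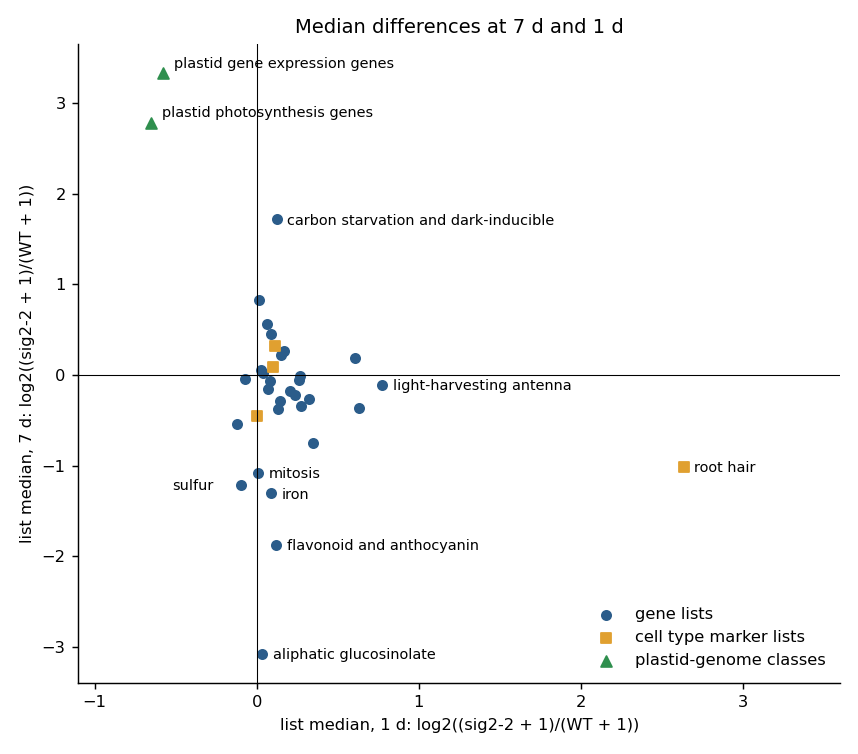
Medians of each gene list at 1 d (x axis) and 7 d (y axis), as log2((*sig2-2* FPKM + 1)/(WT FPKM + 1)), for lists with at least 6 members at both ages. Circles are gene lists, squares cell type markers and triangles plastid-genome classes. Root hair markers lie at 2.63 and -1.01, and the glucosinolate, flavonoid, iron and carbon starvation lists lie near 0 on the x axis.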

How the data were processed

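RNA from whole seedlings of 4 groups (2 genotypes at 2 ages, 3 biological replicates each) was sequenced after an Illumina mRNA kit. The authors' processing notes name Cufflinks and Cuffdiff, without versions; aligner and genome build are not given in the sources used here. The deposited values are FPKM, 1 per locus and group, made by the authors over the 3 replicates. The tables also hold the authors' fold changes, test statistics, p-values and q-values, which were not used. The combined table gave the 33078 nuclear loci, and the 4 single-condition tables the 130 plastid and 141 mitochondrial loci. Nuclear values were equal in both within rounding. Depth and replicate spread are unknown, so no test was made, and the planned omission of single replicates and replicate block were not possible.

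With Python 3.11.15 and pandas 2.3.3, log2((*sig2-2* + 1)/(WT + 1)) was computed for loci at 1 FPKM or more in either genotype, and "higher" or "lower" calls required 2-fold. Symbols came from RefSeq (TAIR10.1). Of 33349 loci, 32048 matched by locus ID at an overlapping position and 704 by position (name, or at least 50% reciprocal overlap), and 597 were not placed. Positions of promoters are those of TAIR10.1 throughout. List medians use genes matched by ID. Genes named were the 15 highest and lowest at 1 FPKM or more in both, the 8 highest and lowest at 100 FPKM or more in either, up to 4 per list, 4 highest and lowest per plastid class, and the SIG genes. Further list genes, the 12 highest and lowest nuclear protein-coding loci at 100 FPKM or more, the nuclear loci ranked without organelle loci, and genes set across ages were chosen after their values were seen. Members, lists and motifs were chosen with earlier results of these data known. The 2-fold call was tested on simulated 4-fold changes in nuclear loci at 10 FPKM or more in WT. Loci of lower WT level were not simulated, so the test does not cover them. The promoter sequence of 1 mitosis gene is not reported here. Alternatives were pseudocounts of 0.1 and 5, centring, scaling, other minimums and other folds.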

Additional observations from a re-analysis of the deposited data

How the results depend on the processing

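No paired analysis was possible because the deposited values pool the 3 replicates of a group, and for the same reason no replicate could be left out. Centring on the median of loci at 10 FPKM or more in both genotypes (-0.02 over 10391 loci) and scaling to equal nuclear sums (by 1.01) moved no median by more than 0.1 and no count by more than 1.5 times, and the single-condition tables gave equal counts of higher and lower loci. A pseudocount of 5 left 545 higher and 339 lower loci, and of 0.1 gave 1175 lower. At 1.5-fold 2274 were higher and 2003 lower, and at 4-fold 258 and 171. With the pseudocount of 1 the medians of plastid photosynthesis, gene expression, tRNA and rRNA, and mitochondrial loci were 2.78, 3.33, 5.76 and 0.90. Under a pseudocount of 0.1 they were 2.96, 3.66, 9.05 and 1.15, and under 5 they were 2.37, 2.74, 3.54 and 0.55. These tRNA and rRNA medians take in the 8 of 15 members listed at 0 in WT. Limited to loci at 1 FPKM or more in both, plastid photosynthesis stood at 2.60 and tRNA and rRNA at 2.29, and at 5 FPKM or more in either mitochondrial loci stood at 1.01. Gene lists with a median of 2-fold or more numbered 6, and 2 with a pseudocount of 5. Loci past 2-fold at both ages numbered 167, 301 with a pseudocount of 0.1, 51 with 5, 94 at 5 FPKM or more and 71 at 1 FPKM or more in both genotypes. Nuclear loci alone, protein-coding loci alone and loci of 200 bp or longer, chosen after seeing the data, kept both counts within 1.5 times. Of 29 list medians, those of salicylate (-0.01, 0.01 when centred) and of starch and sugar genes (0.02, -0.11 at 5 FPKM or more in either or 1 FPKM or more in both) changed sign, both near 0. None of the 41 loci recomputed did.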

Other observations

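Very short nuclear loci differed past 2-fold in both directions more often than long ones. Among 82 members under 100 bp, 31 were higher and 26 lower by 2-fold or more, and 40 were listed at 0 in 1 genotype, against 123 higher and 130 lower of 6301 nuclear members of 3000 bp or longer, of which 2 were at 0 in 1 genotype. The lowest level above 0 among loci under 100 bp was 24.3 FPKM in WT and 21.1 in *sig2-2*. All 8 lowest differences among loci at 100 FPKM or more belonged to loci under 100 bp. *MIR170* was listed at 358 FPKM in WT and 0 in *sig2-2*, and the tRNA loci AT1G03570 and AT3G14855 both at 134 in WT and 0 in *sig2-2*. *MIR156f* was listed at 0 and 870 FPKM, and *MIR160c* at 56.2 and 999. No fold is given for loci listed at 0.

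A peroxiredoxin gene shares its symbol with the spindle protein of the mitosis list. The locus named TPX2 in the deposited table but lying at AT1G65970, thioredoxin-dependent peroxidase 2, stood at 96.1 FPKM in *sig2-2* and differed from WT by 3.28, whereas AT1G03780 was lower. In all, 338 loci carried an ID that RefSeq places elsewhere, and 10 carried a 5-digit number in place of a name.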
